A study of Mus musculus with 6 samples.

Results

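Toll-like receptors are the membrane proteins with which macrophages sense microbial lipids, proteins and nucleic acids. Their transcripts were followed in bone-marrow-derived, M2c-polarized macrophages from 3 wild-type mice and 3 mice without the soluble epoxide hydrolase (sEH), the enzyme that turns fatty acid epoxides into diols. All 10 receptor genes that were looked for (Tlr1 to Tlr9 and Tlr13) were found by symbol among the 19309 genes of the count table, and 9 of them had enough counts to be tested. The series holds 3 sEH-/- and 3 wild-type libraries, 1 per mouse and every one from M2c cells. Mice were 8 to 10 weeks old and strain-matched littermates. The labels do not give their sex, and per the study female mice were used after an initial comparison of the sexes. The sEH-/- mice lacked Ephx2, which encodes the sEH, constitutively in every cell type, so that their macrophages also developed without the enzyme.

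For 7 days, cells of both genotypes grew with GM-CSF and M-CSF, each at 15 ng/mL. They were then exposed to LPS (10 ng/mL) with IFN-γ (1 ng/mL), and finally to TGF-β1 (10 ng/mL). Every library therefore came from cells that had met a ligand of Toll-like receptor 4. The labels give 24 h for LPS with IFN-γ and 48 h for TGF-β1, and the methods give 12 h for the former and 24 h or 48 h for the latter. Libraries held between 4400197 and 6096440 counts. Ephx2 had 1 to 4 counts in sEH-/- and 26 to 57 counts in wild-type libraries, as the labels require. The 7 macrophage markers looked for were present in every library, with a summed level between 1618 and 2249 CPM (counts divided by the scaled library size). The summed counts of the B cell markers found (2 of 5 genes) were at most 3 per library, and those of granulocyte genes (4 of 7 found) were 8 to 22 in sEH-/- libraries and 1 to 8 in wild-type libraries. Stromal markers summed to 46 to 120 counts in the former and 30 to 376 counts in the latter, and plasmacytoid dendritic cell markers (3 of 5 found) to 460 to 656 counts per library. The latter sum was carried by Tcf4 (443 to 624 counts), a gene of many cell types, whereas Bcl11a had 8 to 21 and Ccr9 3 to 11 counts. Of the T and NK cell markers 0 of 5 were found, and they are not analysed here.

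Toll-like receptors work as pairs, and each pair recognizes its ligand where that ligand is found. The receptors of the cell surface read bacterial coats: TLR2 pairs with TLR1 for triacylated and with TLR6 for diacylated lipopeptides, TLR4 binds LPS together with MD-2, and TLR5 binds flagellin. Those of the endosome read nucleic acids, namely double-stranded RNA by TLR3, single-stranded RNA and its breakdown products by TLR7 and TLR8, bacterial ribosomal RNA by TLR13 and CpG DNA by TLR9. Most signal through MyD88 to NF-κB. TLR3 uses TRIF, and TLR4 uses both adaptors.

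The DNA sequence of the receptors bears on how well they can be counted, because reads that mapped to several places had been removed. Tlr1 and Tlr6 are neighbours on mm10 chromosome 5, with 18467 bp between them, and their transcripts share long runs of identical bases. Of all 50-base windows of the annotated Tlr1 transcripts, 512 of 3332 also occurred in another gene, 454 of them in Tlr6. The longest run of identical bases was 229 bases in length and lay inside the coding sequence of both genes. It is shown with the neighbouring 12 bases on each side, as the longest of 6 runs of at least 50 bases. Reads that lie wholly inside such a run cannot be told apart. Capitals mark the identical run. The printed stretches, flanks included, lie on the minus strand of mm10 at chr5:64925525-64925777 for Tlr1 and at chr5:64953816-64954068 for Tlr6.
Tlr1: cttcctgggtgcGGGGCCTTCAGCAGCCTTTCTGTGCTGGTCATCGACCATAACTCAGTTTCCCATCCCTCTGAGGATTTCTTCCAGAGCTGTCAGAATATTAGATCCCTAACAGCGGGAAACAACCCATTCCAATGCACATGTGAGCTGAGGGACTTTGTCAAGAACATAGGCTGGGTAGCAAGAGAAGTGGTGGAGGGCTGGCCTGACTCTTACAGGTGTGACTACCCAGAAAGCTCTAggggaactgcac
Tlr6: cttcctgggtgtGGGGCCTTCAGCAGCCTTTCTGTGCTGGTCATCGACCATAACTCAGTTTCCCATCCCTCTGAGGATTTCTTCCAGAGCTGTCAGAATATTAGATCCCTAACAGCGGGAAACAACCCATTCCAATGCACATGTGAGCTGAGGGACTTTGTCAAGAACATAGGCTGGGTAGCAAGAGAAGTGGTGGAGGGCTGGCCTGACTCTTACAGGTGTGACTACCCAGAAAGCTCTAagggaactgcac
Runs of at least 50 identical bases added up to 748 bases in the transcripts compared, of 3025 (Tlr1) and 3677 bases (Tlr6). The counts of both genes are therefore uncertain and too low by an unknown share, although the same stretches were lost in every library. For Tlr2, Tlr3, Tlr5, Tlr7, Tlr8, Tlr9 and Tlr13 no such window was shared with another gene, and for Tlr4 there was 1.

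Per length of exon, endosomal receptors made up most of the Toll-like receptor transcripts in wild-type M2c macrophages. Tlr13 was highest, with 90.3 ± 11.0 CPM per kilobase (SD, n = 3 mice), and 99.3% of the tested genes lay below its mean over all libraries. Tlr7 followed with 60.5 ± 7.19 and Tlr8 with 50.9 ± 13.0 CPM per kilobase. The ranges of Tlr7 and Tlr8 overlapped, whereas Tlr13 lay above Tlr7 in every library. Below them came Tlr4 with 24.2 ± 4.26, Tlr2 with 23.2 ± 7.06 and Tlr6 with 18.0 ± 1.96 CPM per kilobase. Tlr3 had 13.4 ± 3.09, Tlr1 had 11.4 ± 2.25 and Tlr9 had 8.68 ± 2.21 CPM per kilobase. The places of Tlr1 and Tlr6 are uncertain in both genotypes, because of the reads lost to their shared sequence. From Tlr4 down to Tlr9 each receptor overlapped the next in this order, so that the steps from Tlr13 to Tlr7 and from Tlr8 to Tlr4 were those without overlap between mice. Tlr5 was practically absent, with 3, 1 and 0 counts in sEH-/- and 1, 0 and 0 counts in the wild-type group. No fold is given for it, since no library exceeded 3 counts. Of the remaining mouse receptors, Tlr11 had 0 to 3 counts and Tlr12 4 to 20 counts per library.

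In sEH-/- macrophages the order was the same except for Tlr2 and Tlr3. Tlr13 had 97.8 ± 6.98, Tlr7 70.6 ± 6.44 and Tlr8 66.7 ± 6.79 CPM per kilobase (SD, n = 3 mice). Tlr2 had moved up to the level of Tlr7 and Tlr8, with 68.9 ± 17.4 CPM per kilobase, and overlapped both of them. Tlr4 followed with 30.9 ± 0.593, and Tlr3 (19.3 ± 3.51) and Tlr6 (18.9 ± 1.23) had overlapping ranges. Tlr1 ranged from 13.7 to 16.1 and Tlr9 had 7.07 ± 1.89 CPM per kilobase.

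**Figure D1:**
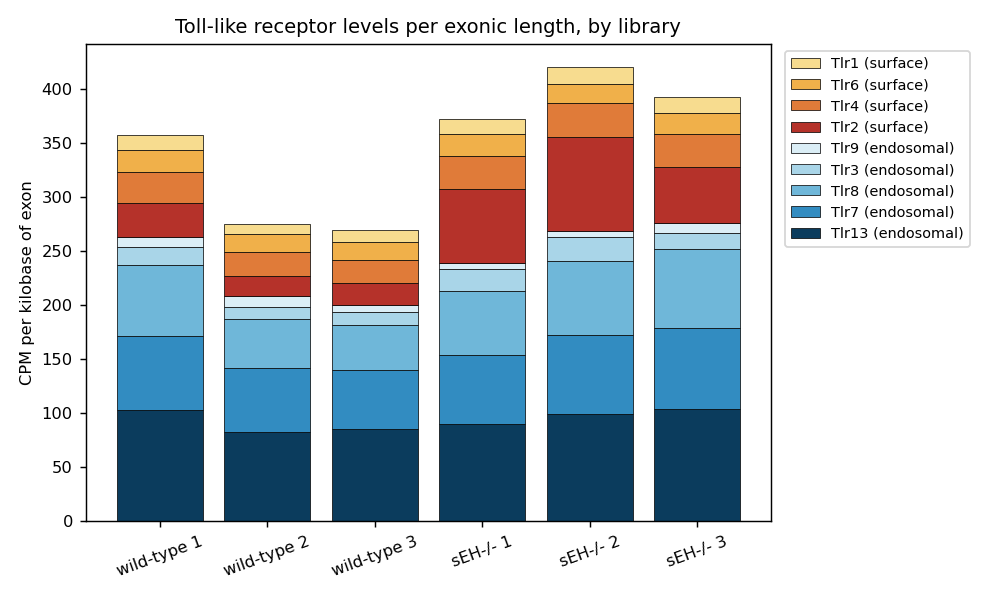
Stacked bars give the level of each receptor in CPM per kilobase of exon (vertical axis, from 0) for every library (horizontal axis), with endosomal receptors in blue and surface receptors in red to yellow. The Tlr2 segment measures 18.2 to 31.3 in the wild-type and 51.8 to 86.5 in the sEH-/- libraries, and Tlr13 is the largest segment everywhere.

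Tlr2 was the only receptor that passed the test for a difference between the genotypes. It lies on the minus strand of chromosome 3 (83836272 to 83841767). The sEH-/- libraries contained 206, 261 and 156 CPM and the wild-type libraries 94.4, 54.7 and 61.0 CPM. Every sEH-/- library was above every wild-type library, and sEH-/- replicate 3 was the lowest of its group and wild-type replicate 1 the highest. On average this was 208 ± 52.3 CPM against 70.0 ± 21.3 CPM (SD, n = 3 mice each), or 3.0-fold more transcript in sEH-/- cells. The log2 fold change was 1.59 (adjusted p = 0.011, SE 0.21 in edgeR's quasi-likelihood test with Benjamini-Hochberg adjustment over 13785 genes). A gene counted as called when its adjusted p was below 0.05 and its fold above 1.5, and 1.51% of all tested genes were called higher in sEH-/- cells by this rule (2.61% in either direction). Among the receptors this was 1 of 9, and it was also 1 of 9 on adjusted p alone, where 2.39% of all tested genes were higher and 1.62% lower (4.01% together). Without wild-type replicate 3, Tlr2 was no longer called (log2 fold change 1.50, adjusted p = 0.093, edgeR). These values are of RNA and not of protein. The study reported less TLR2 protein in sEH-/- M2c macrophages. It also reported less Tlr2 in peritoneal cells of sEH-/- mice after zymosan, and described the rise in cultured M2c cells as a contrast to that. Per the study, Tlr2 was lower in wild-type M2c cells given an sEH inhibitor. In sEH-/- M2c cells it was raised by active but not by catalytically inactive sEH. In human macrophages it was lowered by an epoxide that the enzyme converts.

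The Tlr2 difference was measured in counts that were limited from above. Duplicate reads had been removed by position, so that a gene could collect little more than 1 count per exonic base, and no gene exceeded 0.989 in any library. Tlr2 carried between 0.112 and 0.429 counts per exonic base. When the counts were corrected for this ceiling, its log2 fold change was 1.82. In whole-culture RNA, a larger share of cells with Tlr2 transcripts and more transcripts per cell cannot be told apart, which applies to every gene described here.

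The DNA just before Tlr2 is shown because NF-κB, the factor downstream of these receptors, binds sites of the type GGG, then 5 bases of any kind, then CC (searched on both strands). The sequence is from RefSeq (GRCm38.p6, minus strand, chr3:83841768-83841858) and ends where the annotated gene begins, and capitals mark letters that match the motif on either strand in overlapping registers.
Tlr2: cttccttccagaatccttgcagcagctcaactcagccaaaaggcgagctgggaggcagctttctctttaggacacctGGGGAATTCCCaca
The 300-base window around the RefSeq start of Tlr2 held 5 matches in 2 separate blocks, of which the capitals show 1 block with 2 overlapping matches. Such matches are common, since 50.8% of 32851 windows of this kind in the mouse held at least 1. Windows were found for 8 of the receptors (Tlr4 and Tlr7 had none), and in addition to Tlr2 those of Tlr3, Tlr5 and Tlr6 held a match. The PU.1 core GAGGAAG, a motif of myeloid genes searched on both strands, was found for Tlr1, Tlr9 and Tlr13, and in 13.6% of all windows. Such a match is a description of the letters only.

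Neither partner gene of Tlr2 passed the test. Tlr1 (chromosome 5, 64924679 to 64933563, minus strand) had 45.9, 54.0 and 50.7 CPM in the sEH-/- group, compared with 45.6, 30.6 and 37.9 CPM in wild-type libraries. The groups did not overlap, but sEH-/- replicate 1 and wild-type replicate 1 were almost equal. Its log2 fold change of 0.41 (adjusted p = 0.11, SE 0.14, edgeR) did not pass the test. Tlr6 (64952031 to 64960097, minus strand) had 74.5, 65.5 and 71.5 CPM in the sEH-/- group, compared with 75.5, 62.2 and 63.5 CPM in wild-type libraries. The 2 groups overlapped throughout, and the log2 fold change was 0.08 (adjusted p = 0.68, SE 0.096, edgeR). Per kilobase, the ratio of Tlr2 to Tlr6 was 3.42, 4.92 and 2.70 in sEH-/- against 1.55, 1.09 and 1.19 in wild-type libraries. The ratio of Tlr2 to Tlr1 was 4.98, 5.36 and 3.42 against 2.30, 1.99 and 1.79. Both ratios were higher in every sEH-/- library than in any wild-type library. Since the Tlr1 and Tlr6 counts are too low by an unknown share, the ratios give no order of the genes, and they come with no test.

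Tlr4, the LPS receptor gene on the plus strand of chromosome 4 (66827584 to 66930284), was the tested surface receptor with the smallest SD between sEH-/- mice. Its levels were 170, 176 and 170 CPM in the sEH-/- group, compared with 162, 124 and 118 CPM in wild-type libraries. The groups did not overlap, though wild-type replicate 1 lay close below the sEH-/- group. The log2 fold change was 0.36 (adjusted p = 0.079, SE 0.11, edgeR). With DESeq2 the adjusted p was 0.038, at a log2 fold change still below the threshold of 0.585. Of the 4 tested surface receptors, 3 (Tlr1, Tlr2 and Tlr4) lay higher in all sEH-/- libraries than in any wild-type library, whereas this held for 11.8% of all tested genes. A count of this kind is a description, since the receptors were picked with earlier results of these data known.

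No endosomal receptor passed the test, and all 5 overlapped between the genotypes. At an unadjusted p below 0.05 there were 2 of 5 (Tlr3 and Tlr8), where 23.4% of all tested genes were below this limit. Neither DESeq2 nor limma-voom called any by the same rule, although Tlr3 passed on adjusted p alone with DESeq2 (0.019). Tlr3 (chromosome 8, 45395665 to 45411080, minus strand), the receptor for double-stranded RNA, came closest. It had 108, 114 and 79.9 CPM in the sEH-/- group, compared with 88.0, 57.7 and 63.5 CPM in wild-type libraries. As for Tlr2, sEH-/- replicate 3 was the lowest of its group and wild-type replicate 1 the highest, and for Tlr3 these libraries crossed. Its log2 fold change was 0.55 (adjusted p = 0.080, SE 0.16, edgeR). Without wild-type replicate 1 Tlr3 was called (0.74, adjusted p = 0.021), and likewise without sEH-/- replicate 3 (0.69, adjusted p = 0.034). In these fits 625 and 570 genes of the whole table were called, beside 360 with all libraries. When any other library was left out, Tlr3 was not called (0.42 to 0.50, adjusted p = 0.12 to 0.31, edgeR).

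Tlr7 and Tlr8 are neighbours on the minus strand of chromosome X (167304929 to 167330558 and 167242696 to 167264329), with 40599 bp between them. Tlr8 had 212, 246 and 260 CPM in the sEH-/- group, compared with 236, 162 and 149 CPM in wild-type libraries. Wild-type replicate 1 lay inside the sEH-/- range and the other wild-type libraries below it. The log2 fold change was 0.39 (adjusted p = 0.15, SE 0.15, edgeR), and without wild-type replicate 1 it was 0.61 and called (adjusted p = 0.013). When any other library was left out, Tlr8 was not called (0.27 to 0.47, adjusted p = 0.10 to 0.46, edgeR). Tlr7 had 258, 300 and 306 CPM in the sEH-/- group, compared with 280, 239 and 223 CPM in wild-type libraries, with the same wild-type library in the sEH-/- range. Its log2 fold change was 0.22 (adjusted p = 0.22, SE 0.10, edgeR).

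Tlr13 (chromosome X, 106143204 to 106160493, plus strand), the sensor of bacterial ribosomal RNA, had 388, 426 and 448 CPM in the sEH-/- group, compared with 443, 357 and 366 CPM in wild-type libraries. The groups overlapped and the log2 fold change was 0.12 (adjusted p = 0.54, SE 0.10, edgeR). Its raw counts differed by 1.18-fold between the highest and the lowest library (1934 to 2274 counts), whereas the library totals differed by 1.39-fold. With 0.449 to 0.528 counts per exonic base it was the receptor closest to the ceiling described for Tlr2. The libraries with the smallest totals, sEH-/- replicate 3 and wild-type replicate 1, had the highest Tlr13 level in CPM. With the ceiling correction the log2 fold change was 0.13, and with the library total as a covariate it was 0.06. Tlr7 carried up to 0.370 and Tlr8 up to 0.347 counts per exonic base, and their log2 fold changes with the ceiling correction were 0.25 and 0.45.

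Tlr9 (chromosome 9, 106222598 to 106226883, plus strand), the CpG DNA receptor, was the tested receptor with the fewest counts and the one with a log2 fold change below 0. It had 21.0, 20.5 and 32.2 CPM in the sEH-/- group, compared with 30.5, 37.7 and 22.4 CPM in wild-type libraries. Both groups spanned much the same range, with a log2 fold change of -0.31 (adjusted p = 0.43, SE 0.22, edgeR). Clec9a, the most abundant of the 5 dendritic cell markers found, had 16.4, 23.4 and 42.6 CPM in the sEH-/- group, compared with 30.3, 37.6 and 32.2 CPM in wild-type libraries. sEH-/- replicate 3 was thus the highest of its group for both genes, as was wild-type replicate 2. The summed level of the dendritic cell markers was 27.5 to 58.3 CPM in the sEH-/- group, compared with 42.1 to 59.3 CPM in wild-type libraries, with Xcr1 and Dpp4 at 0 to 5 counts. All 3 dendritic cell markers tested had log2 fold changes below 0 (median -0.31) and 0 were called, where 49.8% of all tested genes were above 0. Among them was Zbtb46, named after its values had been seen (-0.98, adjusted p = 0.11, SE 0.34, edgeR). The part of these markers in the Tlr9 values was not tested.

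**Figure D2:**
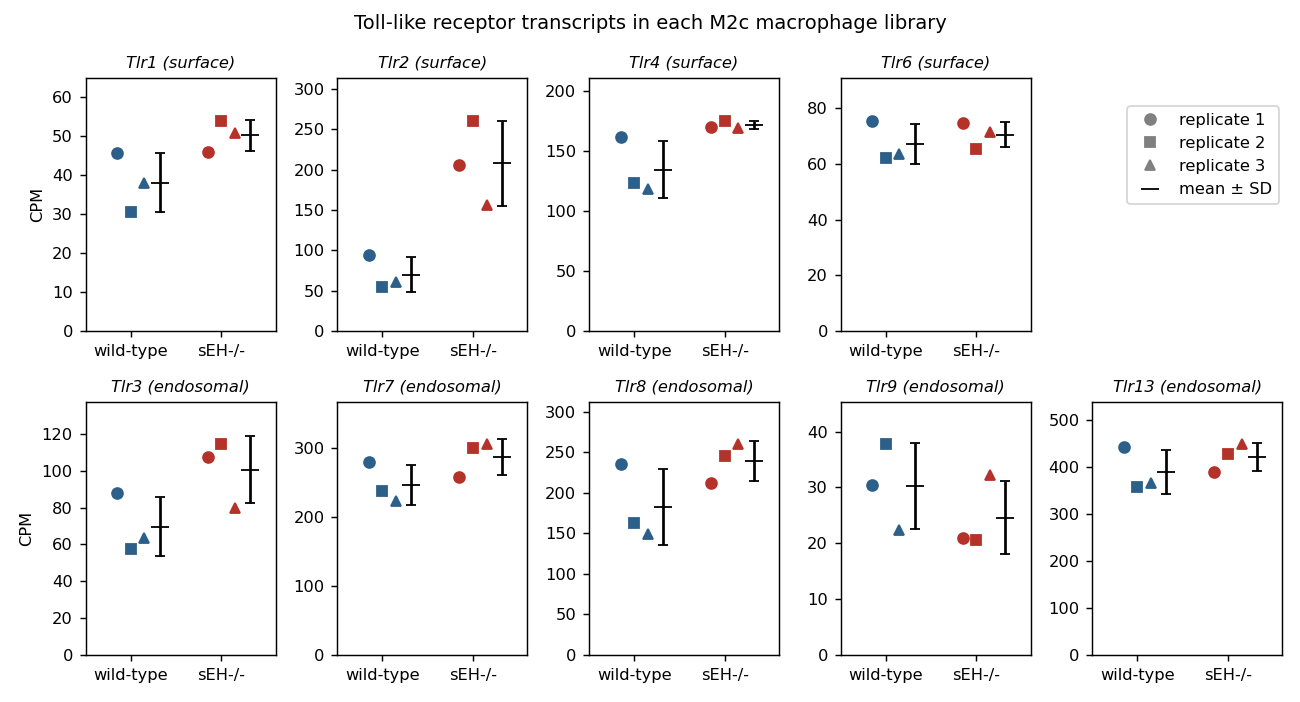
Each panel shows 1 receptor, with its level in CPM (vertical axis, from 0) in the 3 wild-type (blue) and 3 sEH-/- (red) libraries, symbols by replicate number and the mean ± SD in black. Tlr2 separates the genotypes most widely (54.7 to 94.4 against 156 to 261 CPM), Tlr1 and Tlr4 narrowly, and wild-type replicate 1 lies among or next to the sEH-/- libraries for all receptors but Tlr2.

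Surface and endosomal receptors were then set side by side. The 4 tested surface receptors had a median log2 fold change of 0.38 and the 5 endosomal receptors one of 0.22, beside a median of -0.001 over all 13785 tested genes. All 4 surface and 4 of the 5 endosomal receptors were above 0, as were 49.8% of all tested genes. The 7 macrophage markers were all above 0 too, with a median of 0.17. Their summed level was 1799, 2188 and 2249 CPM in the sEH-/- group, compared with 2039, 1618 and 1694 CPM in wild-type libraries. The summed level of the surface receptors was 133, 152 and 117 CPM per kilobase in the sEH-/- group, compared with 94.4, 66.3 and 69.9 in wild-type libraries. That of the endosomal receptors was 239, 269 and 276 CPM per kilobase in the sEH-/- group, compared with 263, 209 and 200 in wild-type libraries, and these groups overlapped. Surface receptors therefore made up 35.7%, 36.1% and 29.7% of the summed Toll-like receptor level in the sEH-/- group, compared with 26.4%, 24.1% and 25.9% in the wild-type group. Tlr2 alone accounted for 13.2% to 20.6% and 6.61% to 8.76%, respectively. These shares are uncertain, because Tlr1 and Tlr6 lost reads to their shared sequence. Tlr13, the receptor closest to the ceiling on counts, is part of the endosomal sum, and the shares were not corrected for the ceiling. Without Tlr2 the surface receptors summed to 64.5, 65.4 and 64.9 CPM per kilobase in the sEH-/- group, compared with 63.0, 48.1 and 49.7 in wild-type libraries. The separation of the surface group thus became narrow once Tlr2 was left out, with wild-type replicate 1 close to the sEH-/- libraries.

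**Figure D3:**
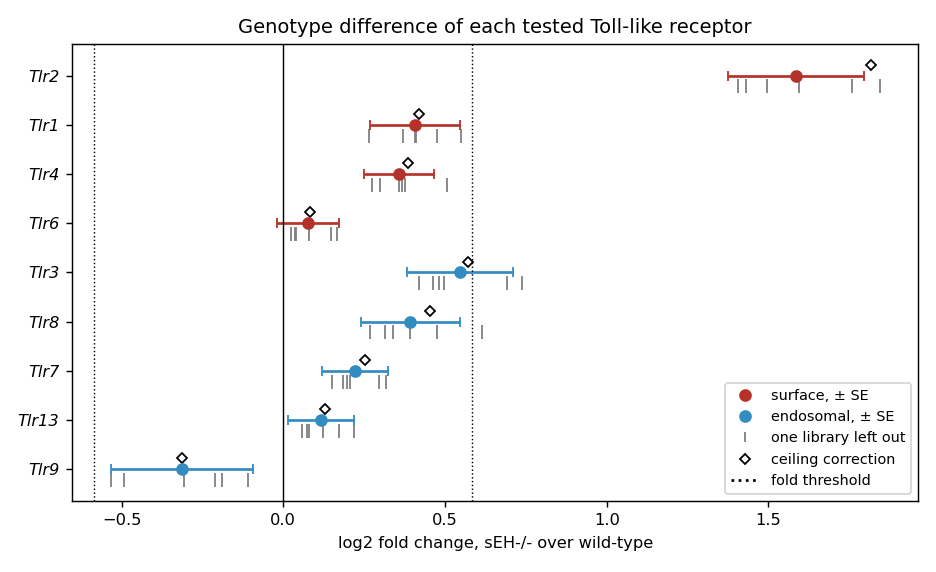
Log2 fold changes of sEH-/- over wild-type (horizontal axis) are drawn for the 9 tested receptors with their SE, red for surface and blue for endosomal receptors, with grey ticks for the fits that leave out 1 library, diamonds for the ceiling correction and dotted lines at the fold threshold of 1.5. Tlr2 alone lies beyond the threshold with all of its ticks (1.41 to 1.85), and the ticks of Tlr3 (0.42 to 0.74) and Tlr8 (0.27 to 0.61) reach across it.

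Genes whose profile over the 6 libraries was most like that of Tlr2 were found by Pearson's r of log2 CPM among the 10276 genes that averaged 50 counts or more. They were Pde4b (r = 0.998), which encodes a cAMP phosphodiesterase, Tent5a (0.998), AI504432 (0.997), Stap1 (0.997) and Egln2 (0.996). Pde4b also resembled Tlr2 in size, with 87.1, 101 and 65.0 CPM in the sEH-/- group, compared with 38.6, 22.4 and 26.7 CPM in wild-type libraries, or a log2 fold change of 1.55 (adjusted p = 0.0087, SE 0.20, edgeR). The highest value among the receptors was that of Tlr3 (0.933, at position 428 of the list). The libraries fall into 2 genotypes, so that genes that differed between them tend to score high, and r is given as a measure of likeness only.

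The genes around the receptors were described by lists covering co-receptors, processing, adaptors, kinases, inhibitors, ligands and targets. Of 80 genes, Tlr11 and Tlr12 included, 79 were found and 73 tested. Called higher in sEH-/- macrophages were 6 and called lower 0, where 1.51% and 1.1% of all tested genes were called. With a fold of any size, 9 were higher and 0 lower at an adjusted p below 0.05, where 2.39% and 1.62% of all tested genes were. DESeq2 called 8 of them beside 472 genes in the whole table, and limma-voom 4 beside 307. Without wild-type replicate 2 the number was 1 (Il1b), and without wild-type replicate 3 it was 0, at 6 called genes in the whole table.

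Of the co-receptors and ligand transfer proteins, 6 of 7 were tested, and 1 was called higher (all tested genes: 1.51%). Lbp encodes the LPS-binding protein, which hands LPS to CD14. It had 9.22, 15.1 and 7.64 CPM in the sEH-/- group, compared with 5.71, 3.56 and 2.33 CPM in wild-type libraries, with a log2 fold change of 1.49 (adjusted p = 0.048, SE 0.36, edgeR). The groups did not overlap, but the counts were low (13 to 75) and the call was lost in 7 of 16 alternatives, without sEH-/- replicate 2 and without wild-type replicate 2 or 3 among them. Cd36, the member with the highest CPM and a partner of TLR2 with TLR6, had 352 ± 59.9 and 335 ± 26.9 CPM (SD, n = 3 mice each; log2 fold change 0.07, adjusted p = 0.78, SE 0.12, edgeR). It carried 0.463 to 0.540 counts per exonic base, so that the ceiling described for Tlr2 applies to it too.

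Cd14 and Ly96 (which encodes MD-2) were chosen after their values had been seen, since they complete the LPS receptor with Tlr4. Cd14 had 182, 203 and 204 CPM in the sEH-/- group, compared with 160, 123 and 136 CPM in wild-type libraries. The groups did not overlap, and the log2 fold change of 0.50 (adjusted p = 0.029, SE 0.098, edgeR) passed the test on p but not the fold threshold. Cd14 carried 0.421 to 0.616 counts per exonic base, and it was called with the ceiling correction and without wild-type replicate 1. Without that library 625 genes of the whole table were called, beside 360 with all libraries. Over the 16 alternatives the log2 fold change of Cd14 was 0.41 to 0.68, and its pass on adjusted p was not kept in all of them. Ly96 had 27.9 ± 4.14 against 22.9 ± 1.23 CPM (SD, n = 3 mice each), with a log2 fold change of 0.28 (adjusted p = 0.25, SE 0.14, edgeR).

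Endosomal receptors reach their compartment with the help of UNC93B1 and are cut there by proteases. Of the 12 chaperones, traffic factors and proteases, all were tested and 0 were called by edgeR, DESeq2 or limma-voom, with 1 at an unadjusted p below 0.05 (all tested genes: 23.4%). Ctsb, the cathepsin B gene and the member with the highest CPM, had 710 ± 84.5 CPM in the sEH-/- group, compared with 667 ± 78.2 CPM in wild-type cells (log2 fold change 0.09, adjusted p = 0.71, SE 0.12, edgeR). It carried 0.557 to 0.613 counts per exonic base. Its raw counts differed by 1.10-fold between libraries, whereas the library totals differed by 1.39-fold. Unc93b1, chosen after its values had been seen, had a log2 fold change of 0.12 (adjusted p = 0.55, SE 0.11, edgeR) at 0.492 to 0.565 counts per exonic base. Ctss, also chosen after its values had been seen, carried 0.96 to 0.99. The ceiling described for Tlr2 therefore limits what these dense genes can show. The gene below the unadjusted limit was Slc15a4, an endolysosomal transporter needed for TLR7 and TLR9 signals. It had 86.6, 89.0 and 91.7 CPM in the sEH-/- group, compared with 107, 104 and 103 CPM in wild-type libraries. Every sEH-/- library was lower, but the log2 fold change of -0.23 (adjusted p = 0.073, SE 0.067, edgeR) did not pass.

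Of the 6 adaptors, all were tested and 0 were called by edgeR, DESeq2 or limma-voom, with 4 at an unadjusted p below 0.05 (all tested genes: 23.4%). Pik3ap1, which encodes BCAP, an adaptor linking the receptors to PI3K, was highest in CPM with 392 ± 18.4 CPM in the sEH-/- group, compared with 335 ± 29.2 CPM in wild-type cells (log2 fold change 0.23, adjusted p = 0.15, SE 0.087). Myd88 and Ticam1, which encodes TRIF, were chosen after their values had been seen. Myd88 had 108, 129 and 107 CPM in the sEH-/- group, compared with 100.5, 84.5 and 85.9 CPM in wild-type libraries (log2 fold change 0.35, adjusted p = 0.065, SE 0.097, edgeR). Ticam1 had 90.3, 87.6 and 79.2 CPM in the sEH-/- group, compared with 95.9, 99.4 and 112 CPM in wild-type libraries (log2 fold change -0.26, adjusted p = 0.10, SE 0.085, edgeR). Both were without overlap between the genotypes, in opposite directions, and neither passed the test.

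Among 22 kinases, ubiquitin ligases and transcription factors, all tested, 14 had log2 fold changes above 0 and 8 below, with a median of 0.03. Of all tested genes, 49.8% were above 0 and 1.51% were called higher. The 1 called gene was Ikbke, which encodes IKKε, a kinase that activates interferon regulatory factors. It had 202, 256 and 215 CPM in the sEH-/- group, compared with 170, 117 and 144 CPM in wild-type libraries, without overlap (log2 fold change 0.65, adjusted p = 0.030, SE 0.13, edgeR). The call was lost without sEH-/- replicate 2 and without wild-type replicate 2 or 3. Irf8, the member with the highest CPM and a transcription factor of the macrophage lineage, had 323 ± 38.8 and 324 ± 20.7 CPM (SD, n = 3 mice each; log2 fold change -0.01, adjusted p = 0.98, SE 0.099).

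Of 12 negative regulators 11 were tested, and 1 was called higher (all tested genes: 1.51%). Dusp1 encodes a phosphatase that switches off MAP kinases. It had 63.5, 82.2 and 46.8 CPM in the sEH-/- group, compared with 39.5, 36.3 and 36.0 CPM in wild-type libraries, without overlap (log2 fold change 0.79, adjusted p = 0.035, SE 0.17, edgeR). The call was lost in 4 of 16 alternatives, without sEH-/- replicate 2 and without wild-type replicate 2 or 3 among them. Irak3, which encodes the inhibitory kinase IRAK-M and was chosen after its values had been seen, passed on p alone (log2 fold change 0.33, adjusted p = 0.034, SE 0.070, edgeR). Tollip, the inhibitor with the highest CPM, had 205 ± 1.58 and 216 ± 3.40 CPM (SD, n = 3 mice each; log2 fold change -0.07, adjusted p = 0.53, SE 0.064).

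Of 7 genes for endogenous protein ligands 5 were tested and 0 were called by edgeR, with 2 at an unadjusted p below 0.05 (all tested genes: 23.4%). DESeq2 called 1 (Vcan) and limma-voom 0. Hmgb1, the highest in CPM, encodes a nuclear protein that can be released from cells and had 35.2 ± 3.08 and 33.0 ± 2.10 CPM (SD, n = 3 mice each; log2 fold change 0.09, adjusted p = 0.69, SE 0.11). S100a9 (0 to 3 counts per library) and Camp (1 to 10 counts) were too low to be tested.

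Targets of Toll-like receptor signalling were the list with the most calls. Of 12 genes 10 were tested, and all 10 had log2 fold changes above 0 (all tested genes: 49.8%), with a median of 0.52. Called higher were 3 (all tested genes: 1.51%). This is a description, since the list was chosen with earlier results of these data known. Among the 10 was Ccl5, named after its values had been seen, whose raw counts lay between 491 and 507 in all libraries (up to 0.528 counts per exonic base) while the library totals differed by 1.39-fold, so that its log2 fold change of 0.11 (adjusted p = 0.63, edgeR) follows the scaling. Il1b, the gene of interleukin-1β, had 54.5, 29.0 and 32.4 CPM in the sEH-/- group, compared with 11.2, 4.70 and 8.23 CPM in wild-type libraries (log2 fold change 2.31, adjusted p = 0.011, SE 0.31, edgeR). Nfkbiz encodes IκBζ, a nuclear cofactor of NF-κB, and had 49.2, 48.1 and 30.1 CPM in the sEH-/- group, compared with 15.1, 19.1 and 18.3 CPM in wild-type libraries (log2 fold change 1.28, adjusted p = 0.014, SE 0.19, edgeR). Cxcl10, the gene of an interferon-induced chemokine, had 51.6, 40.3 and 9.95 CPM in the sEH-/- group, compared with 4.61, 0.81 and 2.50 CPM in wild-type libraries (log2 fold change 3.78, adjusted p = 0.018, SE 0.62, edgeR). None of these 3 overlapped between the genotypes, where 11.8% of all tested genes were higher without overlap. sEH-/- replicate 3, the lowest of its group for Tlr2, was also the lowest for Nfkbiz and Cxcl10. Without wild-type replicate 3 none of the 3 was called, Cxcl10 and Nfkbiz were not called without wild-type replicate 2, and Cxcl10 was not called by limma-voom. Nfkbia, the target with the highest CPM, encodes the NF-κB inhibitor IκBα and had 127 ± 3.73 and 105 ± 13.5 CPM (SD, n = 3 mice each; log2 fold change 0.28, adjusted p = 0.11, SE 0.093).

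**Figure D4:**
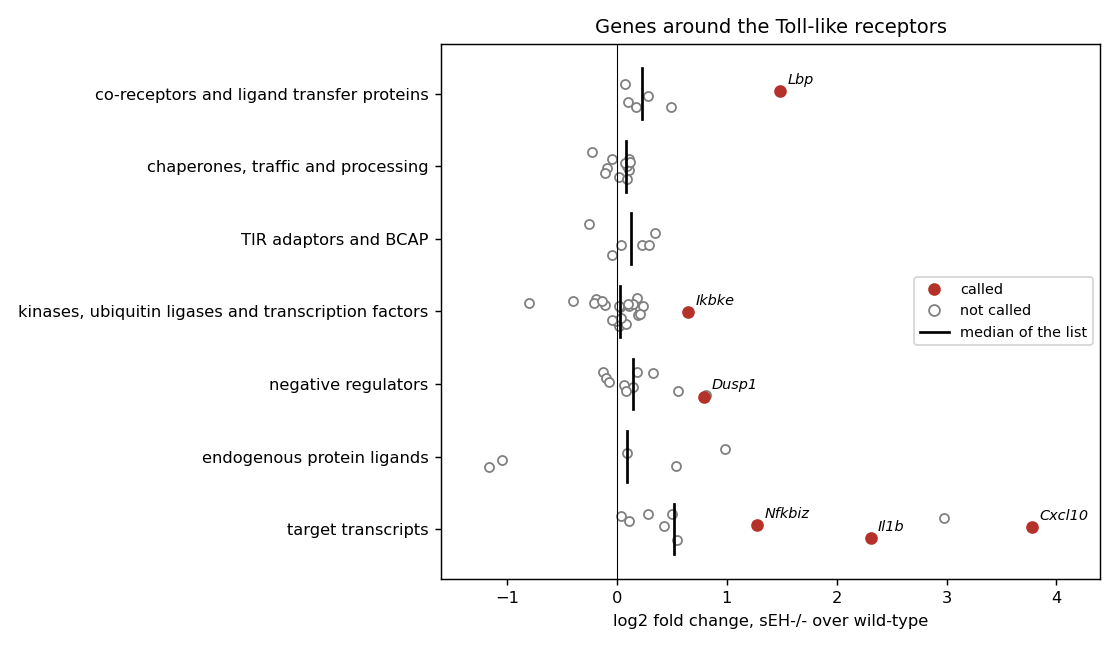
Each point is the log2 fold change of 1 gene, sEH-/- over wild-type (horizontal axis), in rows for the lists around the Toll-like receptors. The target transcripts lie to the right of 0 (10 of 10 tested, median 0.52), whereas the kinases and transcription factors lie on both sides (14 above and 8 below, median 0.03). Of all tested genes, 49.8% were above 0.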

How the data were processed

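The authors deposited 1 table of raw counts per gene for the 6 libraries. Per their methods, reads were trimmed, aligned with STAR to mm10, then filtered to drop PCR duplicates and reads that were mitochondrial, ribosomal or mapped to several places, and counted per exon by strand with featureCounts. Labels and methods differ on the library kit and the stimulation times. Library totals of 4400197 to 6096440 counts limit the precision of genes with few counts.

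From these counts, TMM scaling and edgeR's quasi-likelihood test (edgeR 4.0.16, R 4.3.3) compared 3 sEH-/- with 3 wild-type libraries for 13785 genes with a mean above 5 counts, which held 99.8% of all counts. Genes with a Benjamini-Hochberg adjusted p below 0.05 and a fold above 1.5 were called. CPM used TMM-scaled totals, and CPM per kilobase the annotated exon length (GENCODE M21). SD is the spread between mice. The ceiling correction replaced a count c over L exonic bases by −L ln(1 − c/L). DESeq2 1.42.0, limma-voom 3.58.1, other scalings and filters, thinning, a replicate block, a library-total covariate and leaving out each library were alternatives. The fit was tested on simulated data.

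The receptors and lists were chosen with earlier results of these data known. Named were all receptors, Ephx2, per pathway list the called gene and that with the highest CPM (not per length) and, in lists of at most 7, genes under 5 mean counts, the 5 genes most like Tlr2, and the most abundant gene of a marker list. Other genes are said to be chosen later. Replicate numbers were not used to pair the samples, and the labels do not say whether they do.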

Additional observations from a re-analysis of the deposited data

How the results depend on the processing

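No receptor changed direction in any alternative. Tlr2 was called in 15 of 16 alternatives (log2 fold change 1.41 to 1.85) and lost its call without wild-type replicate 3 (1.50, adjusted p = 0.093, edgeR). The number of called receptors ranged from 0 to 3 when 1 library was left out, with Tlr3 called without sEH-/- replicate 3, and Tlr3 and Tlr8 without wild-type replicate 1. Called pathway genes ranged from 0 to 10, and called genes of the whole table, 360 with all libraries, from 6 to 625. The whole-table number was 171 with the library total as a covariate and 553 with no fold threshold. The cause of these shifts was not tested. The median log2 fold changes of the surface and the endosomal receptors kept their direction in all 9 alternatives computed for them.

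With the replicate number as a block, 234 genes were called in the whole table, 1 of them a receptor (Tlr2) and 5 of them pathway genes (Lbp was lost). Elsewhere the numbers were used as names only, because same-numbered libraries did not deviate together (correlations of -0.082, -0.26 and -0.037). These correlations cannot exclude that the samples were paired. There were 3 libraries per genotype, and the counts of dense genes were limited by duplicate removal. Tlr13, Tlr7 and Tlr8 were not called with all libraries, nor with the ceiling correction (log2 fold changes 0.13, 0.25 and 0.45, adjusted p = 0.48, 0.17 and 0.13, edgeR). Whether either limit affected their results was not tested.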
